A study of Mus musculus with 34 samples.

Results

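The genes described here are the protein-coding mouse genes with symbols from Zfp900 to Zfp999, which encode zinc finger proteins mostly of the KRAB type. They were chosen by symbol alone, after the Ensembl gene identifiers of the count table were matched to the GENCODE M21 annotation (build GRCm38). The rule found 63 genes among the 51368 genes of the table and among its 21846 protein-coding genes. Zfp939, annotated as a pseudogene, was left out. A match to the A box of the KRAB domain, defined as at least 18 of 37 residues identical to a consensus, was found in 61 of the 63. C2H2 finger motifs were found in 60 of the 63, with a median of 11 and at most 21 fingers. Zfp956 and Zfp957 had no KRAB match by this measure, and no finger was found in Zfp935, Zfp957 or Zfp972 in the annotated protein.

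KRAB zinc finger proteins bind DNA through an array of C2H2 fingers and recruit the co-repressor TRIM28 (KAP1) through the KRAB domain. TRIM28 in turn brings the histone methyltransferase SETDB1 and heterochromatin proteins, and many family members are known for silencing transposable elements. The genes arose by repeated duplication, lie in clusters and are usually transcribed at low levels in adult tissue.

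The study compared ways of preparing sequencing libraries from RNA of 1 wild-type C57BL/6J mouse aged 12 weeks, from which liver and heart were taken. The labels disagree on the sex of the animal. PolyA libraries (TruSeq Stranded mRNA) capture polyadenylated RNA. Pull-down libraries (TruSeq Stranded Total RNA) remove ribosomal RNA (rRNA) with capture probes. Digestion libraries remove it enzymatically with Ribo-Zero Plus, in Illumina's ligation-based stranded total RNA kit changed to use xGen UDI-UMI adapters. Each method gave 9 liver libraries from 200 ng RNA, 1 for every pairing of 3 PCR ramp rates (slow, medium, fast) with 3 fragment lengths (short, medium, long). Unselected libraries had no enrichment or depletion, 20 ng input, slow ramp and medium length. There were 3 from liver in batch 1, 3 from liver in batch 2, and 1 from heart in batch 1. Every polyA library was made in batch 1, and every library of the other two methods in batch 2. All libraries had 13 PCR cycles. Every library came from the same animal, so p-values measure only the spread between preparations.

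Library totals ranged from 19.9 to 41.4 M counts apart from 1 pull-down library (slow ramp, long fragments) with 1.13 M, which held 159 counts of the 63 genes in all. In the other 33 libraries these genes held between 776 and 9363 counts. Unselected liver libraries were mostly rRNA and held 2.89 to 3.10 M counts outside rRNA genes and the protein-coding gene Lars2. Unless stated otherwise, levels are normalised CPM (counts per M counts, M standing for mega), adjusted by the trimmed mean of M-values (TMM) over the 33 liver libraries. "Called" means an adjusted p under 0.05 in edgeR's quasi-likelihood test, with Benjamini-Hochberg adjustment over all genes tested.

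Most of the 63 genes lay in 5 groups of neighbours: 16 on chromosome 4 (positions 145510759 to 147848366), 10 on chromosome 2 (175372436 to 178078476), 10 on chromosome 17 (21567008 to 22867134), 4 on chromosome 7 and 3 on chromosome 8. The other 20 lay elsewhere. Their coding transcripts were poor in G and C. The median G+C content was 38.6% over the 63 genes, 46.7% over the 302 other numbered Zfp genes and 49.4% over all protein-coding genes of the table. This is visible in the finger-coding sequence itself. The stretches below encode the first finger and the 7 residues after it, with G and C in capitals, for 3 genes that were lower in polyA than in digestion libraries and for the 2 genes of highest G+C content, which were higher (GENCODE M21, GRCm38). The first 3 are near the median G+C content of the 63 genes. Zfp967 and Zfp993, the genes with the largest rises in polyA over digestion, have 40.3% and 39.1% G+C.
Zfp977: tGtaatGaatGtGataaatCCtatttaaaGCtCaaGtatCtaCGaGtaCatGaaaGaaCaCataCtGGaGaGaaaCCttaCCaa
Zfp947: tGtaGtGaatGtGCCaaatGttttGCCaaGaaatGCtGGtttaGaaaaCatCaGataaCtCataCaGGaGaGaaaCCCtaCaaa
Zfp975: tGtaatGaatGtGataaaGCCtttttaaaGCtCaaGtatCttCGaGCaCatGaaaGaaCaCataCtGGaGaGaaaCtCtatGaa
Zfp954: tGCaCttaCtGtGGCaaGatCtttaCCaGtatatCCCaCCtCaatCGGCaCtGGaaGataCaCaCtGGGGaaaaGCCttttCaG
Zfp956: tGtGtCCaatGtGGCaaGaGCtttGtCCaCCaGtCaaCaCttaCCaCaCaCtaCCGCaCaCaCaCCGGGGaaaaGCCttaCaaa
Of the 84 bases, G or C made up 28 in Zfp977, 31 in Zfp947 and 29 in Zfp975, against 39 in Zfp954 and 42 in Zfp956. Over the whole coding transcript the values were 39.5%, 38.5% and 38.6% for the first 3 genes, 50.1% for Zfp954 and 54.5% for Zfp956, the highest of the 63.

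Sequence shared between genes bears on how reads can be assigned. The median gene shared 35.7% of its 31-base words with transcripts of another gene, and Zfp935, Zfp967 and Zfp969 shared 100.0%. The first 60 bases encoding the KRAB A box show this for the chromosome 2 cluster, with differences from Zfp968 in capitals.
Zfp968: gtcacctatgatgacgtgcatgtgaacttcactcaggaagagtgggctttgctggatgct
Zfp967: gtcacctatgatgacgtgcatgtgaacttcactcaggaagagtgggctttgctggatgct
Zfp970: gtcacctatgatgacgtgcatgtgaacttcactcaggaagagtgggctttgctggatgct
Zfp950: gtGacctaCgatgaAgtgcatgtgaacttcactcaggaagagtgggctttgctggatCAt
Zfp945: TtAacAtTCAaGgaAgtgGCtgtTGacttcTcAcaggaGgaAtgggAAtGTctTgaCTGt
Zfp967 and Zfp970 did not differ from Zfp968 in this stretch, and neither did Zfp966 and Zfp969. Zfp950 on chromosome 19 differed at 5 of the 60 bases and Zfp945 on chromosome 17 at 24. Values of members sharing 60% or more of their 31-base words (20 genes) depend on how the authors' quantification split shared reads, and are uncertain. Exons of 9 of the 63 genes overlap another annotated gene on the same strand, and exons of 3 overlap an antisense gene (Zfp943, Zfp974 and Zfp961).

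Levels in liver differed widely between the genes. Per kilobase of coding transcript, the highest in digestion libraries were Zfp950 (10.1 CPM per kb), Zfp970 (9.49), Zfp943 (2.92), Zfp942 (2.75), Zfp971 (2.68), Zfp976 (2.65), Zfp946 (2.60) and Zfp931 (2.48). Zfp950 had 26.0 ± 0.847 CPM (SD, n = 9) in digestion, 16.5 ± 4.08 (SD, n = 9) in pull-down and 10.3 ± 2.38 (SD, n = 9) in polyA libraries. Every digestion value of Zfp950, at least 24.8, lay above every polyA value, from 7.58 to 13.9. Zfp970 ran in another order, with 14.9 ± 0.911 CPM (SD, n = 9) in digestion, 21.8 ± 2.18 (SD, n = 9) in pull-down and 13.6 ± 2.06 (SD, n = 9) in polyA libraries. Zfp943 to Zfp931 in the per-kilobase order lay within 2.92 to 2.48, and neighbours there were not tested against each other.

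**Figure D1:**
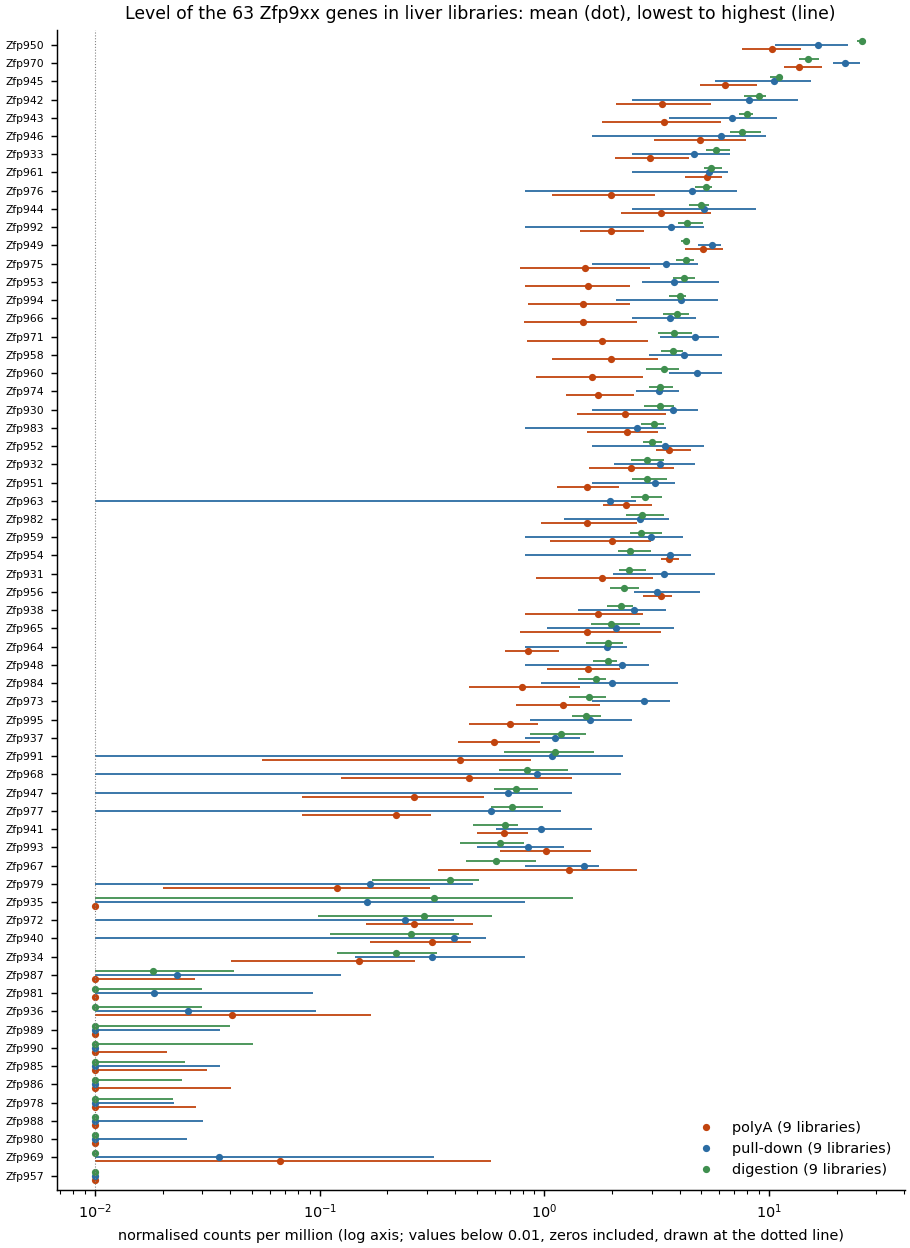
Normalised CPM (log axis) of the 63 genes, ordered by digestion level. Dots are the mean and lines the lowest to highest of 9 libraries per method. Zfp950 leads with 26.0 CPM in digestion, and most of the lowest 11 genes are drawn at the left edge, at or near 0.

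Of the 63 genes, 42 had at least 10 counts in every selected library other than the shallow one, and 10 more reached 10 counts in some. Another 8 never exceeded 3 counts in any of the 34 libraries: Zfp957, Zfp978, Zfp980, Zfp981, Zfp986, Zfp988, Zfp989 and Zfp990. Zfp936, Zfp985 and Zfp987 stayed under 10 counts in every liver library. By position, 9 of the 16 chromosome 4 genes stayed under 10 counts in every liver library, against 0 of 10 on chromosome 2, 0 of 10 on chromosome 17, 1 of 4 on chromosome 7 and 0 of 3 on chromosome 8. Zfp957 was at 0 in all 34 libraries.

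The number of these genes seen was then compared between methods at several depths. At each library's own depth, the number with at least 10 counts was 49.1 ± 0.928 (SD, n = 9) in digestion, 46.8 ± 2.33 (SD, n = 9) in polyA and 43.0 ± 15.5 (SD, n = 9) in pull-down libraries. The shallow pull-down library showed 2. Unselected liver libraries showed 29 to 32 in batch 1 and 33 to 35 in batch 2. After every library was thinned to 1.13 M counts, the total of the shallow one, the means were 12.3 in digestion, 4.78 in pull-down and 3.89 in polyA libraries, and 0 in unselected liver libraries. Digestion showed more of them than polyA and more than pull-down in all 9 pairs of matched ramp and length. With the shallow library left out and the others thinned to the next smallest total, 19.9 M counts, the means were 48.3, 46.4 and 43.8 for digestion, pull-down and polyA. Digestion was then ahead of polyA in 9 of 9 pairs, and ahead of pull-down in 7 of 8 pairs with 1 equal. Protein-coding genes as a whole were also seen most in digestion libraries. At 1.13 M counts 37.6% of them had at least 10 counts in digestion, 35.7% in polyA and 33.04% in pull-down libraries, against 19.6%, 6.17% and 7.58% of the 63 genes. At 19.9 M counts the shares were 58.1%, 55.7% and 56.0% of protein-coding genes, against 76.7%, 69.5% and 73.6% of the 63. No test was made of these counts.

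The first question was how far each method shifted the genes from unselected RNA of the same batch. In polyA libraries 21 of the 51 genes tested were lower than in unselected liver and 2 were higher. Over all genes tested 50.4% were called and 24.8% were called lower. The median log2 fold change was -0.82 over these genes, -0.36 over the 272 other Zfp genes tested and 0.04 over all genes. In pull-down libraries only Zfp952 was called, and in digestion libraries none of the 51, while 32.8% and 14.7% of all genes were called in those comparisons. Each unselected liver library held only 776 to 1010 counts of the Zfp900 to Zfp999 genes in all, so a moderate shift of a single gene could go uncalled. The 0 from edgeR for digestion stood beside 5 genes at an unadjusted p under 0.05 and 2 calls by DESeq2, and the median log2 fold change was -0.19. For pull-down, DESeq2 called 6, all lower, where edgeR called 1 higher, and the median was 0.01. The shares of all genes called by DESeq2, here and in the other comparisons, are not reported. When the polyA comparison lacked batch 1 replicate 3, the calls dropped to 15, and 1 was higher. The share of all genes called in that left-out fit is not reported here.

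Among called genes, the largest falls in polyA against unselected libraries were in Zfp991, Zfp977, Zfp966, Zfp975 and Zfp976. Zfp976, from the chromosome 7 group, had 6.39, 4.67 and 6.26 CPM in the unselected batch 1 libraries. In polyA libraries its lowest, median and highest values were 1.08, 1.79 and 3.10, so that the groups did not overlap. Its log2 fold change was -1.64 (SE 0.33, edgeR adjusted p = 9.4e-05). Zfp975, its neighbour, had 3.71, 4.67 and 4.38 CPM in the unselected batch 1 libraries and 0.781, 1.19 and 2.96 as lowest, median and highest in polyA libraries. Its log2 fold change was -1.67 (SE 0.34, edgeR adjusted p = 0.000148). Zfp966 on chromosome 2, at -1.79 (SE 0.35), and Zfp991 on chromosome 4, at -2.82 (SE 0.55), share 93.9% and 88.0% of their 31-base words with other genes. Zfp977 was at -2.03 (SE 0.60) with at most 7 counts in an unselected batch 1 library.

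The 2 genes called higher in polyA were Zfp954 and Zfp956, those with the most G+C. Zfp956 had 1.86, 2.67 and 1.88 CPM in the unselected batch 1 libraries and between 2.74 and 3.71 in polyA libraries, with no overlap. Its log2 fold change was 0.60 (SE 0.23, edgeR adjusted p = 0.0308). Zfp954 had 1.65, 2.89 and 2.30 CPM against 3.31 to 3.96, a log2 fold change of 0.69 (SE 0.23, edgeR adjusted p = 0.0111). Zfp952 had a pull-down median of 3.52 CPM (1.64 to 5.14) against 2.51, 2.92 and 1.89 in unselected batch 2. These groups overlapped through the shallow library alone, at 1.64. The next lowest pull-down value, 2.921, lay just above the highest unselected one, 2.919. Its log2 fold change was 0.63 (SE 0.24, edgeR adjusted p = 0.0448). The call was lost with relative log expression scaling (edgeR adjusted p = 0.0841), with DESeq2 (adjusted p = 0.104), without any 1 of the batch 2 unselected libraries (edgeR adjusted p = 0.104, 0.0524 and 0.233 without replicates 1, 2 and 3) and in medium libraries alone (edgeR adjusted p = 0.0579).

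Between the selection methods, 39 of 51 genes were lower and 6 higher in polyA than in digestion libraries, beside 80.6% of all genes called and 42.2% called lower. The median log2 fold change was -0.87 over these genes, -0.38 over the other Zfp genes and -0.03 over all genes. Against pull-down libraries 41 were lower in polyA and 1, Zfp956, was higher (median -0.87; all genes 72.6% called, 36.2% lower). Batch and method cannot be told apart in these comparisons. Between the unselected liver batches none of the 51 genes was called, by edgeR or by DESeq2, none had an unadjusted p under 0.05, and 0% of all genes were called. The median difference of batch 2 from batch 1 was 0.15.

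Apart from Zfp935, the largest falls in polyA against digestion were in Zfp979, Zfp977, Zfp947 and Zfp975. Zfp975 had digestion values of 3.85, 4.23 and 4.64 CPM (lowest, median, highest), above every polyA value. It was 2.92-fold lower in polyA (log2 -1.55, SE 0.13, edgeR adjusted p = 2.6e-12). Zfp977 had 0.579, 0.709 and 0.983 CPM in digestion and 0.0833, 0.252 and 0.312 in polyA libraries, again without overlap (log2 -1.72, SE 0.22, edgeR adjusted p = 2.8e-08). Zfp947 was at -1.56 (SE 0.23) and Zfp979 at -1.72 (SE 0.33). Zfp935 was at 0 in all 9 polyA libraries, but only 3 of 9 digestion libraries held any, with 131 counts in all and up to 60 in 1 library. Against a floor of 3 counts over the polyA group it was at least 54.9-fold higher in digestion. Over all lengths it was not called in polyA against pull-down or unselected libraries, whereas in medium libraries alone it was called lower in both. All its 31-base words occur in other genes, 99.2% of them in Gm49359. Among called genes, the largest falls against pull-down were in Zfp960, at -1.61 (SE 0.16), Zfp991, at -1.60 (SE 0.26), Zfp977, at -1.56 (SE 0.24), Zfp947, at -1.54 (SE 0.24), and Zfp971, at -1.49 (SE 0.15).

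The genes higher in polyA than in digestion included Zfp967 (log2 1.00, SE 0.22), Zfp993 (0.66, SE 0.18), Zfp954 (0.57, SE 0.07), Zfp956 (0.55, SE 0.07) and Zfp949 (0.25, SE 0.06). Zfp967 and Zfp993 share 100.0% and 91.9% of their 31-base words with other genes, while the other 3 share under 20%. Split by shared sequence, of 21 tested genes with under 20% shared words 14 were lower and 4 higher in polyA than in digestion (median -0.55). Of 17 with 20 to 60%, 16 were lower (median -1.03). Of 13 with 60% or more, 9 were lower and 2 higher (median -1.04).

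**Figure D2:**
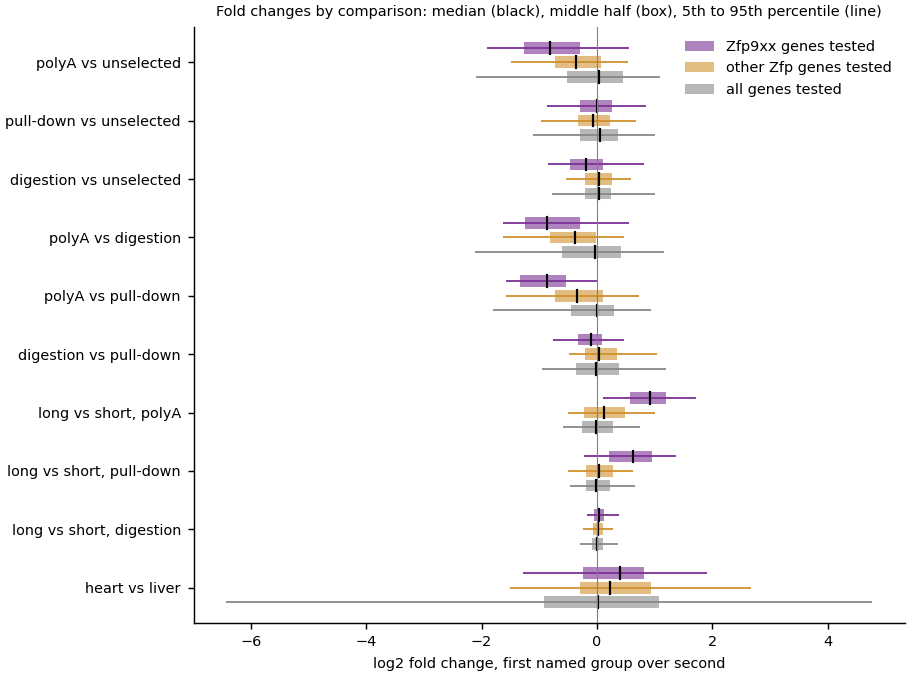
Log2 fold changes in 10 comparisons for the Zfp900 to Zfp999 genes tested, the other numbered Zfp genes and all genes tested. The black bar is the median, the box the 25th to 75th percentile and the line the 5th to 95th percentile. The median of these genes sits at -0.82 for polyA against unselected, 0.91 for long against short in polyA and 0.03 for long against short in digestion.

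G+C content went along with these differences across genes. Over the 51 genes tested, the log2 fold change of polyA over digestion had a Spearman rho of 0.62 with the G+C content of the coding transcript. Over 13393 protein-coding genes the rho was 0.21. With transcript length the rho was -0.25 over the 51 genes and -0.60 over the protein-coding genes. Protein-coding genes under 40% G+C that were not Zfp genes (537 tested) had a median of -0.72, and 73.6% of them were called lower. These are descriptions across genes measured in the same libraries, and the part of G+C content or length in the method difference was not tested.

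Digestion and pull-down libraries, both of batch 2, differed in both directions: 17 of 51 genes were lower and 4 higher in digestion, beside 70.7% of all genes called and 36% called lower (median -0.10). The largest falls were in Zfp967 (log2 -1.47, SE 0.23), Zfp973 (-0.90, SE 0.13), Zfp940 (-0.84, SE 0.20), Zfp954 (-0.70, SE 0.08) and Zfp970 (-0.57, SE 0.07). The 4 that rose were Zfp979 (1.00, SE 0.33), Zfp950 (0.60, SE 0.08), Zfp963 (0.33, SE 0.10) and Zfp933 (0.23, SE 0.10).

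Fragment length changed this picture. In short libraries alone, 17 of 49 genes were higher and 7 lower in digestion than in pull-down (all genes 63.8% called). In medium libraries 2 were higher and 14 lower of 50 (all genes 63.4% called). In long libraries none was higher and 27 of 50 were lower (all genes 49.7% called). The medians were 0.20, -0.17 and -0.43. Zfp943 gave log2 fold changes of 0.81 (SE 0.12) in short, 0.23 (SE 0.08) in medium and -0.37 (SE 0.10) in long libraries, each called. Zfp942 went from 0.72 (SE 0.11) to -0.52 (SE 0.15) between short and long libraries, both called. Zfp950 went from 0.88 (SE 0.07) in short to 0.18 (SE 0.10, not called) in long libraries. Zfp979 was at 1.98 (SE 0.65) in short and 0.25 (SE 0.41, not called) in long libraries. Zfp933 was called in short libraries alone, at 0.54 (SE 0.09), and Zfp963, between 0.28 and 0.34, was called at no single length. The long pull-down libraries include the shallow one.

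The shortfall of polyA against digestion also depended on length. It held in 39 lower and 3 higher of 49 genes in short libraries (all genes 76.4% called), 38 lower and 2 higher of 50 in medium ones (75.2%), and 21 lower and 8 higher of 50 in long ones (64.4%). The medians were -1.15, -1.01 and -0.23. Zfp947 was at -2.62 (SE 0.35) in short, -1.61 (SE 0.27) in medium and -0.70 (SE 0.32, not called) in long libraries. Zfp970 went from -0.34 (SE 0.07) in short to 0.21 (SE 0.06) in long libraries, both called. Against pull-down, polyA was lower in 40 of 49 genes in short, 43 of 50 in medium and 31 of 50 in long libraries, with medians of -0.96, -1.14 and -0.67 (all genes 66.1%, 68.1% and 45.6% called). In medium libraries alone, the length of the unselected libraries, polyA was lower than unselected in 27 and higher in 2 of 50 genes (all genes 53% called). Pull-down and digestion each had 1 higher and 2 lower of 50 there (all genes 34.3% and 17.1% called). These splits by length were chosen after the length effect had been seen.

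The direct comparison of long with short fragments asked whether library length alone moves a gene's share of reads. Over the 3 methods together, 35 of 49 genes tested were higher in long libraries and none lower, with a median log2 fold change of 0.46. Over all genes 46.3% were called and 25.7% were called higher. The other Zfp genes had a median of 0.08 and all genes 0.01. The largest rises were in Zfp968 (log2 1.16, SE 0.36), Zfp965 (1.15, SE 0.15), Zfp991 (1.02, SE 0.22) and Zfp979 (0.84, SE 0.33). Fast against slow PCR ramp moved none of the 49 in edgeR or DESeq2, with 0 at an unadjusted p under 0.05 and 0.00692% of all genes called.

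The length effect was not equal across methods. Within polyA libraries 40 of 48 genes were higher in long than in short libraries and 1 was lower (median 0.91; all genes 56.3% called, 27.7% higher). Within pull-down libraries 13 of 48 were higher and none lower (median 0.62; all genes 6.23% called, 4.59% higher). Within digestion libraries 1 was higher and 1 lower of 51 (median 0.03; all genes 18.3% called). The difference itself, tested as an interaction of method with length, was called for 34 of 49 genes, beside 34.1% of all genes. In 33 of those 34 the change from short to long was smaller in digestion than in polyA. Over the 49 tested genes the median of that difference was -0.89 on the log2 scale, against 0.03 over all genes. For pull-down minus polyA the median was -0.18.

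Zfp943 shows the pattern in each library. In polyA its short libraries had 2.33, 2.11 and 1.80 CPM (slow, medium and fast ramp), its medium libraries 2.70, 2.49 and 2.68, and its long libraries 4.76, 6.11 and 5.84. The long polyA libraries all lay above the medium and short ones. In pull-down the short libraries had 3.95, 3.60 and 5.57 CPM and the long ones 6.54, 10.8 and 9.82, where 6.54 came from the shallow library. In digestion the short libraries had 8.14, 7.33 and 7.97 and the long ones 7.87, 7.78 and 8.14, which overlapped. The difference of digestion from polyA in long against short was -1.38 for Zfp943 (edgeR adjusted p = 5.5e-06).

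Zfp931, on chromosome 2, had 1.48, 0.917 and 0.942 CPM in short and 3.06, 2.60 and 2.96 in long polyA libraries, without overlap. In digestion it had 2.37, 2.81 and 2.22 in short and 2.16, 2.31 and 2.15 in long libraries. The difference between these length effects was -1.47 (edgeR adjusted p = 3.4e-05). For Zfp965 the difference was -1.32 (edgeR adjusted p = 3.6e-05) and for Zfp947 -1.89 (edgeR adjusted p = 0.00109).

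Zfp965 rose with length in every method. In polyA it had 0.875, 0.778 and 0.801 CPM in short and 2.58, 2.40 and 3.30 in long libraries (log2 1.74, SE 0.18, edgeR adjusted p = 8.8e-06). In pull-down its log2 fold change was 1.44 (SE 0.15) and in digestion 0.40 (SE 0.12, edgeR adjusted p = 0.0264). Its annotated coding transcript has 957 bases, and 97.9% of its 31-base words are shared. The other largest rises among called genes within polyA were in Zfp968 (2.47, SE 0.27), Zfp991 (1.81, SE 0.37) and Zfp947 (1.67, SE 0.39). Zfp968 passed the low-count filter only with its long libraries, where it was high, so its value is a description. It is counted among the genes higher in long polyA libraries. Within pull-down the other called genes with the largest rises were Zfp984 (1.47, SE 0.22), Zfp942 (1.22, SE 0.23) and Zfp994 (1.21, SE 0.14), while Zfp947, at 1.505 (SE 0.38), was not called. Zfp970, which shares 67.9% of its words, was the gene lower in long digestion libraries, at -0.17 (SE 0.05).

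Zfp956, the gene richest in G+C, went the other way. In polyA libraries it had 3.39, 3.50 and 3.71 CPM in short and 2.80, 2.74 and 2.88 in long libraries, without overlap. Its log2 fold change of long over short was -0.35 (SE 0.09, edgeR adjusted p = 0.00497). The difference of digestion from polyA in this effect was 0.47 (edgeR adjusted p = 0.0456).

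**Figure D3:**
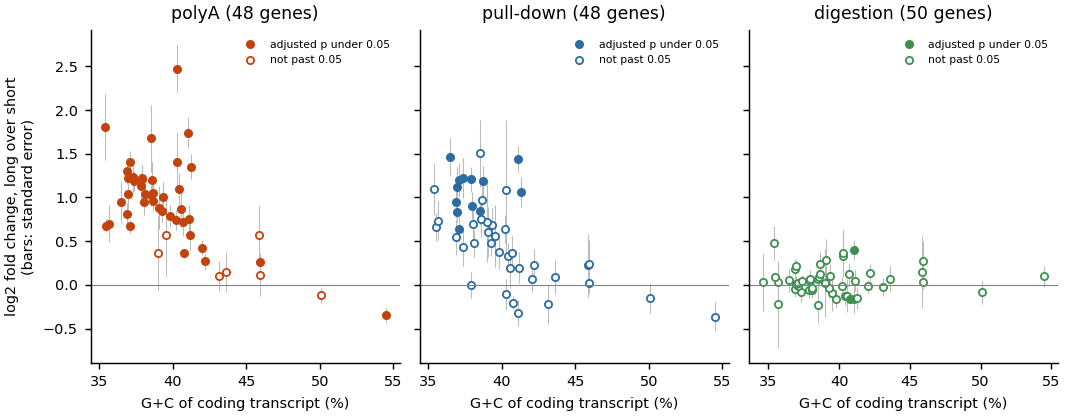
Log2 fold change of long over short libraries for each Zfp900 to Zfp999 gene tested, against the G+C content of its coding transcript, in 3 panels by method. Bars are standard errors, filled points are called, and Zfp935, at 0 in most libraries, is not drawn. Genes under 40% G+C sit mostly above 0 in polyA and pull-down and near 0 in digestion, and Zfp956 lies lowest in polyA at -0.35.

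Across genes, long over short had a rho of -0.54 with G+C content over 48 of these genes in polyA, -0.63 over 48 in pull-down and -0.02 over 51 in digestion. Over all protein-coding genes tested the values were -0.82, -0.60 and -0.19. Among genes under 40% G+C that were not Zfp genes, the median was 0.73 in polyA (487 genes), of which 89.5% were called higher, 0.47 in pull-down and 0.06 in digestion. Low G+C genes outside the family thus had medians of the same sign as the family in each method. By position, all 10 tested genes of the chromosome 17 group and all 6 of the chromosome 4 group were higher in long polyA libraries. So were 8 of 9 on chromosome 2, 2 of 3 on chromosome 7, 1 of 3 on chromosome 8 and 13 of 17 elsewhere. Over all genes 27.7% were called higher.

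The count within pull-down libraries rested on single libraries. It ranged from 1 to 27 when each of the 9 was left out in turn. Without the shallow library (replicate 1) 25 were higher and 2 lower. Without replicates 2, 3 and 8 the calls were 1, 2 and 1, without replicates 4, 5, 7 and 9 they were 8, 6, 5 and 7, and without replicate 6 they were 9. The median stayed between 0.48 and 0.65. The share of all genes called in each of these fits is not reported here.

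**Figure D4:**
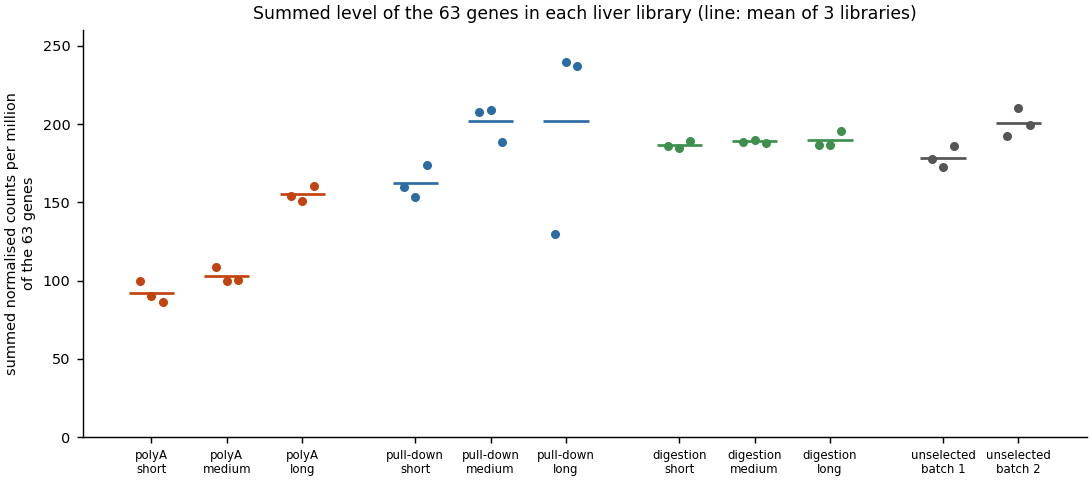
Summed normalised CPM of the 63 genes in each liver library, by method and fragment length, with the mean of 3 libraries as a line. Digestion libraries lie between 185 and 196 at every length, whereas polyA libraries rise from 86.4 to 99.5 in short to 151 to 160 in long libraries.

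The summed level of the 63 genes was 92.1 ± 6.71 CPM (SD, n = 3) in short, 103 ± 5.04 (SD, n = 3) in medium and 155 ± 4.77 (SD, n = 3) in long polyA libraries. In digestion libraries it was 187 ± 2.15, 189 ± 0.799 and 190 ± 5.04 (SD, n = 3 each). In pull-down it was 162 ± 10.4 in short and 202 ± 11.3 in medium libraries (SD, n = 3 each), and the 2 deep long libraries reached 237 and 240 while the shallow one had 130. Unselected liver summed to 179 ± 6.65 (SD, n = 3) in the first batch and 201 ± 9.28 (SD, n = 3) in the second. Of the 9 digestion libraries 8 lay below the unselected range of their own batch, 192 to 211, and 1 lay within it. PolyA libraries of every length lay below the unselected range of theirs, 173 to 186. The sum was also taken per M counts of protein-coding genes other than Lars2. On that scale all 9 digestion libraries, from 330 to 348, lay within the range of unselected batch 2, 327 to 361. PolyA libraries, from 126 to 222, still lay below unselected batch 1, 292 to 315.

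Transcripts of the proteins that KRAB zinc fingers work through were counted in the same libraries. Of a list of 25 co-repressor and heterochromatin genes, 9 were higher and 12 lower in polyA than in digestion libraries, with a median of -0.02, beside 80.6% of all genes called. Trim28 itself, at 59.6% G+C, averaged 38.2 CPM in digestion and 41.5 in polyA libraries (log2 0.12, SE 0.03, edgeR adjusted p = 0.00337). Setdb1, the histone methyltransferase, averaged 25.9 and 25.8 CPM and was not called (log2 -0.01, SE 0.03). The extremes were Fam208a (Tasor, of the HUSH silencing complex) at -1.71 (SE 0.09) and Mphosph8, of the same complex, at 1.01 (SE 0.07). Between 14.7% and 80.6% of all genes were called in the 6 method comparisons, with 70.7%, 72.6% and 80.6% in those between selection methods. The share of all genes called in at least 2 of the 6 is not reported here. Of the 25 listed genes 22 were called in at least 2, among them Atf7ip, Cbx1, Cbx5, Chd3, Chd4, Dnmt1, Dnmt3a, Fam208a, Hdac1, Hdac2, Morc2a, Morc3, Mphosph8, Pphln1, Smarcad1, Sumo2, Trim24, Trim28, Trim33 and Uhrf1.

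Heart was compared with liver through its single unselected library, set against the 3 unselected liver libraries of batch 1, and the test borrows its spread from the liver libraries. The tissue labels were checked against marker genes: 6 of 6 cardiomyocyte markers were higher and 6 of 6 hepatocyte markers lower in heart than in every unselected liver library. Their summed levels were 6259 CPM in heart against 0 to 0.205 in liver, and 44.5 CPM in heart against 12220 to 12430 in liver. Markers of other cells moved too. All 4 fibroblast markers were higher in heart (summed 100.1 CPM against 20.6 to 24.1), as were 3 of 4 endothelial markers (89.8 against 38.3 to 44.3) and 2 of 3 red cell markers (83.0 against 50.2 to 59.6). Of 4 macrophage markers 3 were lower (10.2 against 20.7 to 23.8), and of 3 lymphocyte markers none lay wholly above or below the liver range, with a summed level of 2.54 against 2.63 to 3.93. The part of cell composition in the results on heart was not tested, and in bulk tissue fewer cells of a type and less RNA per cell cannot be told apart. CPM in this comparison are normalised over the 7 unselected libraries and are not on the scale used above.

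The heart library, with 4.33 M counts outside rRNA genes and Lars2, had at least 10 counts for 39 of the 63 genes. The unselected liver libraries had this for 32, 29 and 31 in batch 1 and for 33 to 35 in batch 2. Protein-coding genes as a whole were also seen more often in heart, 52.1% of them against 46.3% to 46.9% in the batch 1 liver libraries. Of 44 genes tested 10 were higher in heart and 3 lower, beside 68.5% of all genes called and 34.8% called higher. The median log2 fold change was 0.40 over these genes, 0.23 over the other Zfp genes and 0.01 over all genes. DESeq2 called 5 (3 higher, 2 lower).

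Zfp979 and Zfp934 were at or near 0 in unselected liver. Zfp979, on chromosome 4, had 26 counts in heart (95% Poisson interval 17.0 to 38.1) and 0, 0 and 2 in the liver libraries. Its ratio of heart to liver was 25.5 by counts (95% interval 6.37 to 221, counting error only). Zfp934, on chromosome 13, had 18 counts in heart (10.7 to 28.5) and 0, 0 and 3 in liver, a ratio of 11.7 (3.43 to 62.2). Both entered the test through the heart library alone and were named for this difference, so their values are a description. They are among the 10 genes counted as higher. Zfp985, too low to be tested, had 6 counts in heart (2.20 to 13.1) and 0 in each unselected liver library. Against a floor of 3 counts over the batch 1 liver libraries it was at least 3.92-fold higher, with no replicate of the heart library.

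Zfp971, among the highest of these genes per kilobase, had 99 counts in heart (3.31 CPM) and 26, 7 and 17 counts in liver (1.29, 0.377 and 0.859 CPM). It was 3.86-fold higher in heart (log2 1.95, SE 0.33, edgeR adjusted p = 1.4e-05). Zfp970 had 208 counts in heart (6.96 CPM) against 75, 81 and 96 (3.73, 4.36 and 4.85 CPM), without overlap. Zfp984, at log2 1.26 (SE 0.44), also rose. Zfp967, at 1.70 (SE 0.50), had 27 counts in heart, at most 7 in a batch 1 and 5 in a batch 2 liver library. Zfp967 too entered the test through the heart library alone, so its value is a description. It is counted among the higher genes. Over the 10 tested genes with 60% or more shared words the median log2 fold change was 1.02. It was 0.28 over 15 genes with 20 to 60% and -0.23 over 19 with under 20%. The first class includes Zfp967 and the middle class Zfp979 and Zfp934, which entered the test through the heart library alone.

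The genes lower in heart were Zfp946, Zfp976 and Zfp975. Zfp946, on chromosome 17, had 15 counts in heart (0.502 CPM) and 27, 41 and 42 in liver (1.34, 2.21 and 2.12 CPM). It was 3.72-fold lower (log2 -1.89, SE 0.34, edgeR adjusted p = 3.5e-05). Zfp976 had 16 counts in heart and 31, 21 and 30 in liver (log2 -1.38, SE 0.36). Zfp975 had 17 in heart and 18, 21 and 21 in liver (log2 -0.84, SE 0.37, edgeR adjusted p = 0.0458). Zfp950, the leading liver gene, had 129 counts in heart and 114, 86 and 96 in liver and was not called (log2 -0.23, SE 0.17).

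**Figure D5:**
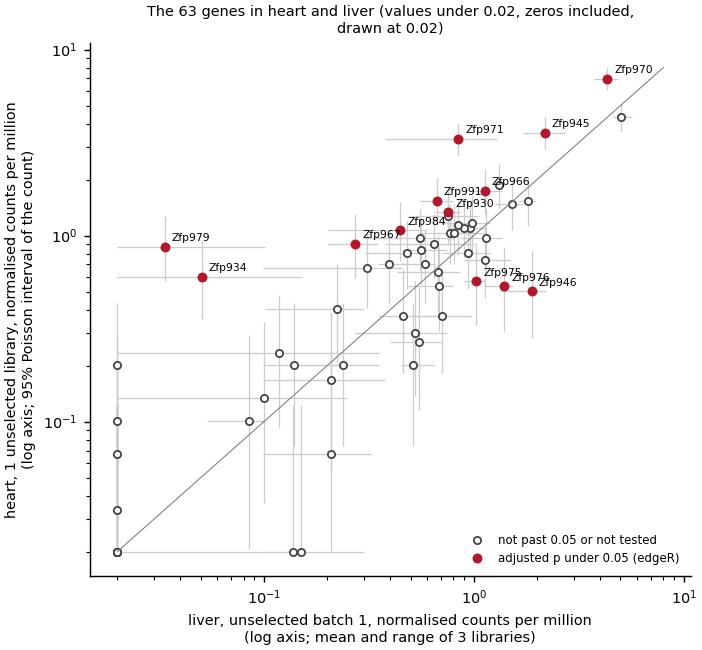
Normalised CPM of the 63 genes in the heart library (log axis, 95% Poisson interval) against the mean and range of 3 unselected liver libraries of batch 1 (log axis). Red points are called. Zfp979 and Zfp934 stand at the left with almost no liver counts, and Zfp946, Zfp976 and Zfp975 lie below the line of equal level.

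The comparisons above use TMM scaling, which sets the genes against the rest of the transcriptome. Scaled to library totals, which are mostly rRNA in unselected libraries, the median over all genes moved to 2.67 for polyA, 2.31 for pull-down and 2.85 for digestion against unselected, 0.55 for digestion against pull-down, 0.32 for polyA against pull-down, -0.28 for polyA against digestion and 0.54 for heart against liver. The calls on these genes then were 45 higher and 0 lower, 49 higher and 0 lower, 49 higher and 0 lower, 35 higher and 2 lower, 7 higher and 33 lower, 4 higher and 43 lower, and 23 higher and 2 lower. Of 15422 genes in all, 14620, 14677 and 15143 were called on that scale against unselected for polyA, pull-down and digestion, nearly all higher, and 12630, 12363 and 12448 in the comparisons between methods. For heart it was 9456 of 13004. The genes' own medians on that scale were 1.83, 2.26, 2.62, 0.46, -0.55, -1.11 and 0.92.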

How the data were processed

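RNA-seq libraries of 33 liver and 1 heart preparations were measured. The authors deposited gene-level expected counts (estimated read numbers, 10.5% of values not whole) in 1 table. The submitters' processing notes name UMI-tools 1.1.1, Salmon 1.9.0, R 4.4.0 and build GRCm38. The transcript set, bias correction and use of molecular identifiers in counting are not given in the sources used here. Deposited expected counts were rounded. Fits used edgeR 4.0.16 in R 4.3.3 with TMM scaling, filterByExpr and the quasi-likelihood F-test, Benjamini-Hochberg adjusted at 0.05 over all genes tested. Method comparisons used the 33 liver libraries with ramp and length as factors, length comparisons the 27 selected libraries or 9 of 1 method, and the interaction tested both long-against-short terms. Heart used the 7 unselected libraries. SE is the log2 fold change divided by the root of F. The fitting script was tested on simulated data. Thinning used seed 11. Intervals cover counting error only. Alternatives were DESeq2 1.42.0, other scalings, no filter, left-out libraries and, chosen after seeing the data, single fragment lengths.

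The genes and lists were chosen with earlier results of these data known. Named were the 8 genes highest per kilobase in digestion, up to 5 called each way per method comparison and heart, up to 4 each way per length comparison and interaction, genes with 10 or more counts in heart and a liver median of at most 3 or the reverse, genes never above 3 counts, and Trim28, Setdb1 and co-repressors called in at least 2 method comparisons, of which some are not reported here; others named were picked after their values were seen. Same-numbered unselected replicates share only a number (correlations 0.03, -0.04 and -0.10).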

Additional observations from a re-analysis of the deposited data

Results flagged for a closer look

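Of 33 groups of 9 libraries checked for a single stray value (summed level, detection at own and at equal depth, and the 8 genes highest per kilobase), 2 had one. Chance alone gives about 1 in 20. The shallow pull-down library showed 2 of the 63 genes with at least 10 counts at its own depth, far below the other 8. Among digestion libraries, 1 summed level, 195.5 CPM, stood above the others, which ended at 190.

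The effect of fragment length differed between methods for 34 of these genes in the interaction test (edgeR). As differences of digestion from polyA in long against short, on the log2 scale, the named genes gave -1.89 for Zfp947 (adjusted p = 0.00109), -1.47 for Zfp931 (adjusted p = 3.4e-05), -1.38 for Zfp943 (adjusted p = 5.5e-06), -1.32 for Zfp965 (adjusted p = 3.6e-05) and 0.47 for Zfp956 (adjusted p = 0.0456).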

How the results depend on the processing

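Fits of polyA against digestion and against pull-down, of length over all methods and within polyA, and of the interaction kept their count of called genes within 1.5 times under other tools, scalings, filters and left-out libraries. With library totals as the scale the calls were 45 for polyA (direction reversed), 49 for pull-down and 49 for digestion against unselected, 37 for digestion against pull-down (direction reversed) and 25 for heart, and Zfp977, Zfp966, Zfp975 and Zfp976 changed sign against unselected, to 0.59, 0.86, 0.98 and 1.01. That scale moves the median of all genes in polyA against unselected to 2.67, so the signs there follow from the scale, and these 4 genes lie below that median. DESeq2 called 6 for pull-down (all lower) and 2 for digestion against unselected, 5 for heart and 1 for length within digestion. Relative log expression (RLE) scaling gave 0 for pull-down against unselected, and no filter gave 5 for length within digestion. Single lengths, chosen after seeing the data, gave 3 for pull-down and 3 for digestion against unselected in medium, 24 for digestion against pull-down in short and 29 for polyA against digestion in long libraries, where Zfp933 in digestion against pull-down turned to -0.10.

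Leaving out 1 library at a time gave 15 to 23 calls for polyA against unselected (15 without batch 1 replicate 3), 0 to 3 for pull-down and 0 to 2 for digestion against unselected, 11 to 13 for heart, and 36 to 42, 1 to 27 and 0 to 4 for length within polyA, pull-down and digestion. With at least 1 count as detection at equal depth, digestion, polyA and pull-down showed 46.0, 40.2 and 44.2 genes, heart 34, and unselected liver 25.7 and 27.3 in batches 1 and 2. Without the shallow library, at the next smallest total and with at least 10 counts, the numbers were 48.3, 43.8, 46.4, 38, 29.7 and 34. With at least 1 count there they were 51.8, 51.3, 51.6, 53, 48.3 and 49. A replicate block over the 6 unselected liver libraries called 0 of 35 genes, and the same fit without it 0. Among named genes under these settings, single lengths aside, 394 values kept direction and call, 59 lost the call, 8 moved and 4 reversed; the cause was not tested. At own depth, 2 of the 63 genes had at least 10 counts in the shallow pull-down library and 29 to 35 in unselected liver libraries.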
